A study of Mus musculus with 6 samples.

Results

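The enamel matrix genes were Amelx, Ambn, Enam, Amtn, Odam and Klk4, selected by gene symbol from a table of RNA sequencing values for 23718 genes. All 6 were listed. The table covered 6 libraries of laser-captured incisor mesenchyme from mice 1 month old. In laser capture a beam cuts chosen cells from sectioned tissue. Of these, 3 were of mesenchymal stem cells (MSC) of Gli1-CreER;tdT mice, and 3 were of transit amplifying cells (TAC), the stem cells' dividing progeny, of Axin2-CreER;tdT mice, in the labels' spelling. The methods name the drivers CreERT2 and place the tdTomato reporter at Rosa26. In both groups tamoxifen, given 1 day before collection, let the driver switch on a red reporter, and the labels give the strain as C57BL/6 while the study's methods speak of a mixed background. Each driver marks cells by expression of its own gene, so the groups differ in transgene as well as in region, and no untreated or driver-free group was analysed. The methods give 3 mice per group, but the labels do not tie a library to a mouse, so p-values measure the spread between these libraries.

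Enamel is made by ameloblasts, epithelial cells that face the dentin-forming odontoblasts of the mesenchyme. In the secretory stage they lay down a protein matrix of amelogenin (Amelx), ameloblastin (Ambn) and enamelin (Enam), which the protease MMP20 trims. In the maturation stage they secrete the protease kallikrein 4 (Klk4), which degrades the matrix so that crystals can thicken, and the attachment proteins amelotin (Amtn) and odontogenic ameloblast-associated protein (Odam). In a growing incisor both stages are present along the tooth, and the mesenchyme itself forms no enamel.

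Ambn, Enam, Amtn and Odam lie close together on chromosome 5 within the gene family of secretory calcium-binding phosphoproteins, and Amelx belongs to the same family on the X chromosome. On mm10, Odam spans 87885029 to 87894174, Amtn 88376108 to 88385916, Ambn 88455991 to 88468531 and Enam 88487975 to 88506049, all on the plus strand. Amelx spans 169176114 to 169187200 on the minus strand of X, inside Arhgap6, which runs on the opposite strand, with no shared exon sequence. Klk4 spans 43881160 to 43885804 on the plus strand of chromosome 7, in another family, the kallikrein proteases. Use of strand in counting was not stated, so reads of Arhgap6 could enter Amelx. Arhgap6 itself ranged from the level of no read to 6.08, against 80.6 to 2503 for Amelx.

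Promoter sequence is shown for the 6 genes so that the start regions of secretory-stage and maturation-stage genes can be compared. The 150 bases before the RefSeq transcription start are printed on the gene's own strand (assembly GRCm38.p6). Capitals mark TGATTGG, the reverse complement of CCAATCA.
Amelx (chrX:169187210-169187359, minus strand): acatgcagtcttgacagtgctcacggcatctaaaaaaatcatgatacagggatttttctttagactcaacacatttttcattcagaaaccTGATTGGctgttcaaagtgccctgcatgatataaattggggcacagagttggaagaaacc
Ambn (chr5:88455841-88455990, plus strand): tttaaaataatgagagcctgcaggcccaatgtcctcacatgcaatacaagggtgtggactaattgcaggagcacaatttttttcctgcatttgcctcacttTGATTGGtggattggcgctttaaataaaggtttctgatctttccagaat
Enam (chr5:88487825-88487974, plus strand): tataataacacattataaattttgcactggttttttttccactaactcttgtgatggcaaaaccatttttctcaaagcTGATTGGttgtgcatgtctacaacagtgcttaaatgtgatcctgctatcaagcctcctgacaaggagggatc
Amtn (chr5:88375958-88376107, plus strand): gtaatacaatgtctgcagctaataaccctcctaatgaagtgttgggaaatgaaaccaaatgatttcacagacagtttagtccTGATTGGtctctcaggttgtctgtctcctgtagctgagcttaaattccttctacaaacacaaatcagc
Odam (chr5:87884860-87885009, plus strand): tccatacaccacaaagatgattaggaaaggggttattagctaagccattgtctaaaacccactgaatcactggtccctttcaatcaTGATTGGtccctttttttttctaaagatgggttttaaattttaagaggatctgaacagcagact
Klk4 (chr7:43881010-43881159, plus strand): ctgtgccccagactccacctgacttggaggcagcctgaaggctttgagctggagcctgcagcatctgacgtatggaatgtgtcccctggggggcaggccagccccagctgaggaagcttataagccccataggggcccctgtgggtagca
All but Klk4 held TGATTGG. Its first base lay 60 bases before the start in Amelx, 49 in Ambn, 72 in Enam, 68 in Amtn and 64 in Odam. Both secretory-stage and maturation-stage genes carried it, so its presence did not separate the stages. Of 32851 RefSeq promoter windows, 7.23% held CCAATCA on either strand in the 250 bases before the start, and 1.28% held TGATTGG as printed with its whole length between 100 and 51 bases before it, as 4 of the 6 genes did. The shorter CCAAT, which CCAATCA contains, was present on some strand in 5 of the 6 and in 33.8% of windows. TATAAA occurred in Amelx, 31 bases before the start, and in Enam, 137 bases before it, against 12.4% of windows. TGTGGT was found in Odam only (14.05% of windows), and TTNNGNAA in all but Klk4 (36.8% of windows). Both strands were searched. The motifs were chosen after the sequences had been seen, and a match of letters is not a binding site.

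Replicate 3 stood apart from replicates 1 and 2 in both regions. Estimated reads numbered 20203159 to 25567244 in replicates 1 and 2, whereas replicate 3 had 59793645 in MSC and 108156380 in TAC. Listed genes without a read made up 6.47% to 7.96% in replicates 1 and 2, 42.8% in MSC replicate 3 and 27.9% in TAC replicate 3, and the share of mitochondrial ribosomal RNA was 8.28% to 9.07% in replicates 1 and 2, but 0.112% to 0.236% in replicate 3. Estimated reads of replicates 1 and 2 differed by 10.4 times (MSC) and 8.47 times (TAC) the variance of counting alone, against 1660 to 2173 times for comparisons with replicate 3. They were counted as separate replicates, as labelled, which does not show that they came from separate mice. Dental mesenchyme markers were present in every library, with 8 of 8 listed markers detected and summed values of 3391 to 13626. Col1a1 was the largest part of the sum, at 9568 of 12045 in MSC replicate 1 and 1554 of 3391 in MSC replicate 3. Twist1 was the lowest marker, down to 3.58 in TAC replicate 3. Results are therefore given also for replicates 1 and 2 alone and for replicate 3 alone. The cause of the split was not tested.

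The secretory-stage genes were abundant in both regions of replicates 1 and 2. Amelx, the main matrix protein of forming enamel, was 2503, 2492 and 80.6 across the MSC libraries, against 2102, 2209 and 826 across TAC. Values are listed by replicate number from 1 to 3, in the deposited unit, a read number scaled per library. MSC replicate 3 was the lowest, TAC replicate 3 stood between, and the groups overlapped. The MSC mean was 1692 ± 1395 (SD, n = 3) and the TAC mean 1712 ± 769 (SD, n = 3). On the log2(value + 1) scale the difference, TAC minus MSC, was 0.97 (SE 1.35, limma adjusted p 0.849). The sign depended on a library, since it was -0.67 without MSC replicate 3.

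Ambn, which helps to hold ameloblasts to the enamel surface, was 820, 770 and 181 across the MSC libraries, against 819, 799 and 1157 across TAC. TAC replicate 3 was its highest library. Means were 590 ± 355 (SD, n = 3) and 925 ± 201 (SD, n = 3). The log2 difference was 0.91 (SE 0.66, limma adjusted p 0.660), and 0.20 without MSC replicate 3.

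Enam, the largest and least abundant of the secretory matrix proteins, was 308, 309 and 7.07 across the MSC libraries, against 299.9, 287 and 77.8 across TAC. As for Amelx, replicate 3 was low in both regions. Means were 208 ± 174 (SD, n = 3) and 221 ± 125 (SD, n = 3). The log2 difference was 1.05 (SE 1.40, limma adjusted p 0.838), and -0.71 without MSC replicate 3.

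The maturation-stage genes were low in replicates 1 and 2 and highest in TAC replicate 3. Amtn, which sits at the junction of ameloblast and mature enamel, was 5.04, 4.72 and 6.73 across the MSC libraries, against 1.31, 1.34 and 149.6 across TAC. Within replicates 1 and 2 both TAC values lay below both MSC values. In TAC replicate 3 it was 113 times the mean of the other TAC libraries. Means were 5.50 ± 1.08 (SD, n = 3) in the MSC libraries and 50.8 ± 85.6 (SD, n = 3) in TAC. The log2 difference was 0.54 (SE 1.54, limma adjusted p 0.940), and -1.47 without TAC replicate 3.

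Odam, a protein of maturing enamel and of the junctional epithelium, was 0.720, 0.695 and 14.2 across the MSC libraries, against 0.657, 0.791 and 248 across TAC. Replicate 3 was the higher in both regions, 20.03 times the mean of the other MSC libraries and 343 times the mean of the other TAC libraries. The libraries of replicates 1 and 2 rested on 23 to 32 estimated reads, against 2128 and 65475 in replicate 3. Means were 5.20 ± 7.77 (SD, n = 3) in the MSC libraries and 83.2 ± 142.9 (SD, n = 3) in TAC. The log2 difference was 1.35 (SE 1.99, limma adjusted p 0.862), and -1.04 without TAC replicate 3.

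Klk4, the protease of the maturation stage, was 1.25, 1.42 and 0.00666 across the MSC libraries, against 0.701, 0.0959 and 29.8 across TAC. MSC replicate 3 had no read, TAC replicate 2 had 3 estimated reads and TAC replicate 3 had 7849. Against a floor of 3 reads, which a count of 0 allows for counting error only, Klk4 was at least 1490-fold higher in TAC than in MSC replicate 3. The log2 difference was 1.13 (SE 1.25, limma adjusted p 0.790), a value that depends on the added pseudocount, and -0.37 without TAC replicate 3.

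**Figure D1:**
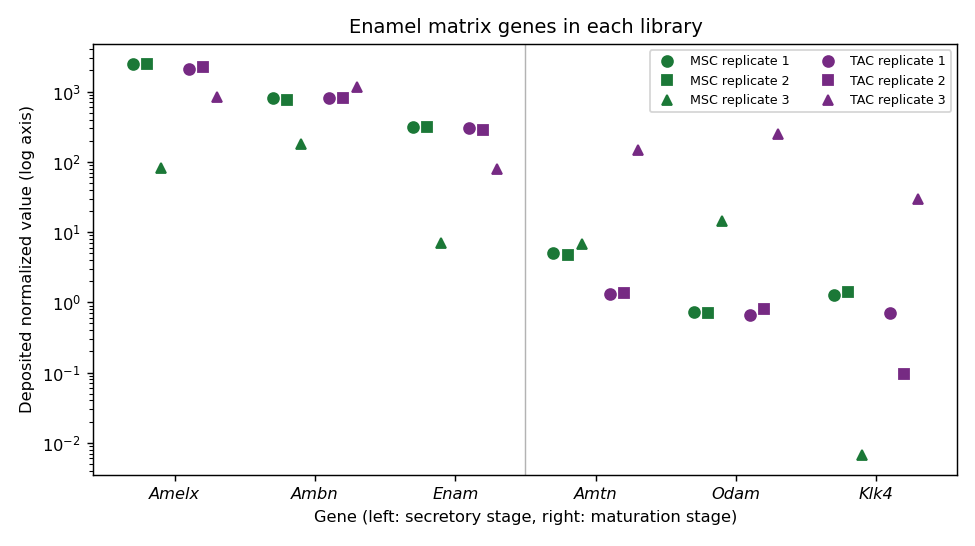
Deposited normalized value (log axis) of each enamel matrix gene in the 3 MSC libraries (green) and the 3 TAC libraries (purple), with a different marker for each replicate number. Amelx, Ambn and Enam, left of the line, were lowest in MSC replicate 3, while Amtn, Odam and Klk4 were highest in TAC replicate 3, and the lowest Klk4 point is a library with no read.

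Between the regions, 0 of the 6 genes passed an adjusted p-value of 0.05 in limma. At an unadjusted p-value under 0.05 the number was also 0, and voom on estimated reads called 0 as well. Over all 15391 genes tested, 0.422% passed, and 11.9% were under 0.05 before adjustment. With the replicate block, which pairs libraries of the same number, 0 of the 6 and 1.49% of all genes passed. The MSC and TAC values overlapped for each of the 6, while 24.5% of genes tested had no overlap. The median log2 difference was 1.01 over the 6 genes and 0.03 over all genes tested. Over the 6 genes it was 0.43 without MSC replicate 3 and 0.18 without TAC replicate 3.

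In replicates 1 and 2 the regions were close for Ambn, Enam and Odam and apart for Amelx, Amtn and Klk4. The log2 differences there were -0.21 for Amelx (SE 0.03, limma adjusted p 0.000571), -1.34 for Amtn (SE 0.23, limma adjusted p 0.00169) and -0.77 for Klk4 (SE 0.26, limma adjusted p 0.0378), all lower in TAC. Ambn, Enam and Odam differed by 0.03 (SE 0.04, limma adjusted p 0.621), -0.07 (SE 0.04, limma adjusted p 0.181) and 0.01 (SE 0.21, limma adjusted p 0.969). Pooled over both regions of replicates 1 and 2, Klk4 and Odam lay under the filter's mean of 1 and were kept through replicate 3. Their means there were 1.34 in MSC and 0.398 in TAC for Klk4, and 0.707 and 0.724 for Odam. In that fit 44.2% of genes passed and 24.2% passed as higher in MSC, with an error taken from pairs of nearly equal libraries, so 3 of 6 is near the background. Over the alternatives the adjusted p ran up to 1.00 for each of the 6, from lowest values that were those of this fit for Amelx, Amtn, Klk4 and Enam, and 0.422 for Ambn and 0.449 for Odam, both with the replicate block.

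In replicate 3 every enamel matrix gene was higher in TAC. The sign was opposite to that of replicates 1 and 2 for 4 of the 6 (Amelx, Enam, Amtn and Klk4), as for 38.8% of all genes tested. The value in TAC was 10.2 times that in MSC for Amelx, 6.39 times for Ambn, 11.005 times for Enam, 22.2 times for Amtn and 17.5 times for Odam, with Klk4 as above. On the log2(value + 1) scale the differences were 3.34, 2.67, 3.29, 4.28 and 4.04 in the order Amelx, Ambn, Enam, Amtn and Odam. The 4.93 of Klk4 on that scale is set by the pseudocount, since MSC replicate 3 had no read, and lies below the bound given above. A difference above 1 in this direction was seen in 27.8% of genes tested. With 1 library per group no test could be made within replicate 3.

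**Figure D2:**
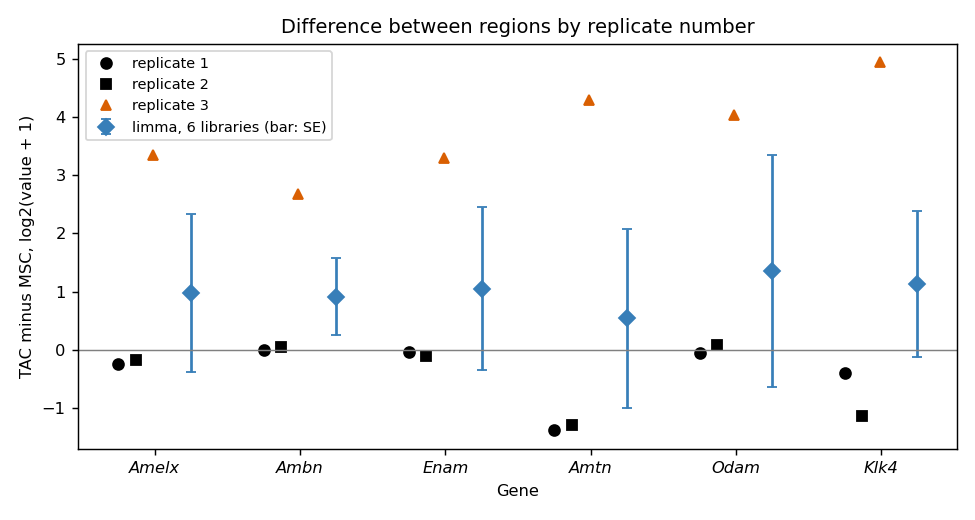
Difference between regions (TAC minus MSC, log2(value + 1)) of each enamel matrix gene by replicate number, beside the limma estimate over 6 libraries with its SE. Replicate 3 lies between 2.67 and 4.28 for Amelx, Ambn, Enam, Amtn and Odam, while replicates 1 and 2 lie between -1.38 and 0.08 for the 6 genes. The replicate 3 point of Klk4, at 4.93, is set by the pseudocount because MSC had no read.

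Whether the pattern was that of the secretory or the maturation stage was asked within each library, where levels of different genes can be compared only per length. Estimated reads were divided by exon length and by the library's total, on the scale of RPKM. On this length-scaled level Amelx ranked 1 of 15487 protein-coding genes in replicates 1 and 2 of both regions, at 3758 to 4289, above the collagen Col1a1 and the dentin matrix gene Dspp. It ranked 143 in MSC replicate 3, at 203, and 17 in TAC replicate 3, at 2016. Ambn ranked 10 to 18 in replicates 1 and 2, 113 in MSC replicate 3 and 21 in TAC replicate 3. Enam ranked 128 to 225, 8224 and 1225.

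The maturation-stage genes ranked far lower in replicates 1 and 2. Amtn ranked 3997 and 4293 in MSC and 9522 and 9459 in TAC, at length-scaled levels of 2.26 to 8.39. Odam, at 0.824 to 0.982, and Klk4, at 0.101 to 1.90, ranked 10311 to 13982. In TAC replicate 3 their order changed, with Odam 77th at 440.0, Amtn 89th at 357 and Klk4 599th at 58.1. In MSC replicate 3 Odam, at 25.9, and Amtn, at 16.5, stood above Enam, at 3.23.

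Summed over each stage, the length-scaled level of Amelx, Ambn and Enam was 468 and 477 times that of Amtn, Odam and Klk4 in replicates 1 and 2 of MSC. For TAC the factors there were 1139 and 1406. It was 10.4 in MSC replicate 3 and 4.12 in TAC replicate 3. Secretory-stage genes thus made up over 99% of the enamel matrix level in 4 libraries (99.8% to 99.9%), 91.3% in MSC replicate 3 and 80.5% in TAC replicate 3. The order Amelx, Ambn, Enam, Amtn held in replicates 1 and 2 of both regions. In these 4 libraries the levels resembled the secretory stage, and in TAC replicate 3 genes of both stages were high. Compared as ratios of the factors above, regions of the same number differed less in this balance than replicate 3 did from the others. In percent this did not hold for MSC replicate 3, at 91.3% against 99.8% in the other MSC libraries and 80.5% in TAC replicate 3. No test was made of the balance.

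**Figure D3:**
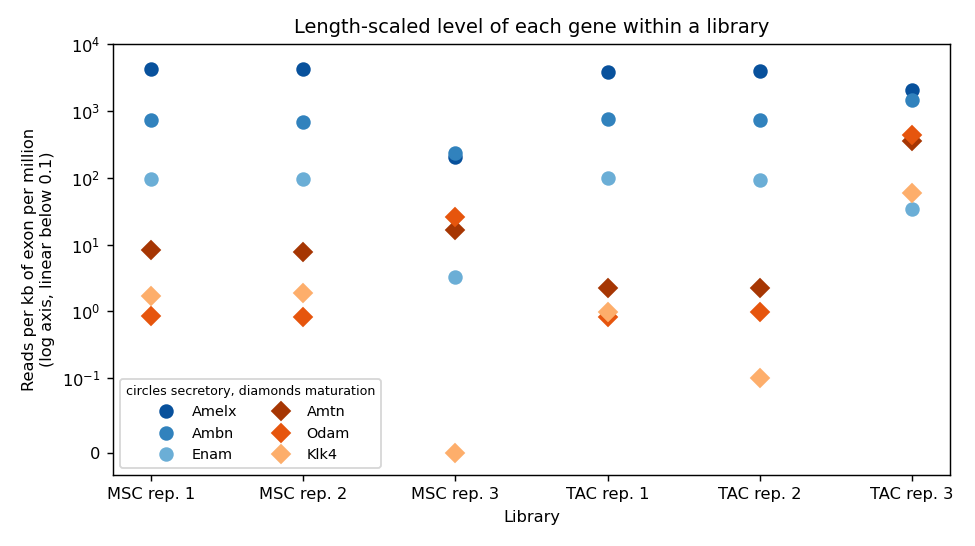
Length-scaled level (estimated reads over exon length and library total, on the scale of RPKM, log axis that is linear below 0.1) of the 6 enamel matrix genes in each library, with secretory-stage genes as circles and maturation-stage genes as diamonds. All circles lie above all diamonds in replicates 1 and 2, while in replicate 3 of both regions Odam and Amtn lie above Enam.

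Within the secretory set the genes did not keep a fixed ratio. Per length, Amelx was 4.93 to 6.22 times Ambn in replicates 1 and 2, 0.856 times in MSC replicate 3 and 1.37 times in TAC replicate 3. Ambn was 7.13 to 7.97 times Enam in replicates 1 and 2, 73.3 times in MSC replicate 3 and 42.5 times in TAC replicate 3. Amelx to Enam varied less, from 38.5 to 62.7 over the 6 libraries. Ambn was therefore the gene that departed from the other two in replicate 3. Among the maturation genes, Odam was 0.103 to 0.432 times Amtn in replicates 1 and 2, 1.56 times in MSC replicate 3 and 1.23 times in TAC replicate 3.

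Likeness of profiles over the 6 libraries was measured as the root-mean-square difference of centred log2 values, where a small value means alike. Amelx and Enam were the closest pair, at 0.21. Pairs within the secretory set reached 1.32, pairs within the maturation set ran from 0.82 (Amtn and Klk4) to 1.73, and pairs across the sets from 1.38 (Ambn and Klk4) to 4.13 (Enam and Odam), so the ranges overlapped. The gene most like Amelx was Slc4a4 (0.13), a bicarbonate transporter. Prpf3 (0.03), a splicing factor, was most like Ambn, Zhx3 (0.07) most like Enam, Cerkl (0.42) most like Klk4, Bglap2 (0.98), an osteocalcin gene, most like Amtn, and Rps12l1 (1.07) most like Odam. The 5 genes closest to the mean profile of the 6 were Npff, BC025920, Trim16, Ovgp1 and Slc29a2, at 0.22 to 0.24, with Pearson correlations of 0.980 to 0.993. Npff, BC025920, Trim16, Ovgp1, Slc4a4 and Cerkl had no read in MSC replicate 3, and Rps12l1 had none in replicates 1 and 2 of either region, so the pseudocount sets part of their likeness. The points share libraries and depth, with replicate 3 apart in both regions, so likeness is given as a description.

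Neighbours of the chromosome 5 group did not share the pattern. Between 100 kb before Odam and 100 kb after Enam, 3 other genes were listed, all beyond Enam. Utp3 was 23.2 to 34.7 and Rufy3 26.8 to 55.96 over the 6 libraries, while Jchain, an immunoglobulin joining chain, was 46.6 in MSC replicate 3 and at most 0.695 elsewhere.

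Mmp20, the protease of the secretory stage, was 53.5, 55.8 and 15.04 across the MSC libraries, against 54.6, 48.8 and 48.6 across TAC. It was lowest in MSC replicate 3, as Amelx, Ambn and Enam were. Its log2 difference was 0.49 (SE 0.50, limma adjusted p 0.767). Per length, Mmp20 was at 26.1 to 29.7 in replicates 1 and 2, above Klk4 in each of them, while in TAC replicate 3 Klk4, at 58.1, was above Mmp20, at 36.05. Acp4, the other gene listed for this stage, was not analysed here.

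Of 6 further genes listed for the maturation stage, 5 had values, 4 were tested and 0 passed. Slc24a4, a calcium exchanger, was 3.12, 2.96 and 3.29 across the MSC libraries, against 0.219, 0.144 and 7.43 across TAC. Like Amtn, it was lower in TAC than in MSC in replicates 1 and 2 and highest in TAC replicate 3. Its log2 difference was -0.86 (SE 0.84, limma adjusted p 0.753) and -1.77 in replicates 1 and 2 alone (limma adjusted p 0.000226, with a range over the alternatives up to 1.00). The integrin subunit Itgb6 and the chloride channel Cftr differed by 0.08 and 0.55 with limma adjusted p-values of 0.982 and 0.790. Wdr72 stayed below 0.56 in every library and was not tested, and Car6 was not analysed here.

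Of 14 other genes in which inherited mutations cause defective enamel, some of them named above, 13 had values and 12 were tested. In limma 0 passed, and only Sp6 of the 12 was under 0.05 before adjustment, 1 gene in all. The median log2 difference was 0.52. It was -0.12 without MSC replicate 3, -0.04 in replicates 1 and 2 alone and 0.52 without TAC replicate 3. Sp6, an epithelial transcription factor, was 52.4, 61.2 and 19.2 across the MSC libraries, against 235, 222 and 257 across TAC. Every TAC value was above every MSC value. Its log2 difference was 2.55 (SE 0.45, limma adjusted p 0.0836), and it passed without MSC replicate 3 (2.05, limma adjusted p 0.0330) and in replicates 1 and 2 alone, with adjusted p-values from 2.31e-07 to 0.352 over the alternatives. The hemidesmosome genes Lamb3 and Col17a1 had no read in MSC replicate 3 and were 7.36 to 25.4 and 12.2 to 17.7 in the other libraries.

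Transcription factors known in ameloblasts numbered 9, all tested. In limma 0 passed, and 3 were under 0.05 before adjustment, with a median log2 difference of 0.69. These were Sp6, the homeobox gene Msx2, at 1.49 (SE 0.29, limma adjusted p 0.106), and the chromatin organizer Satb1, at 1.89 (SE 0.51, limma adjusted p 0.195). With the replicate block Satb1 passed (limma adjusted p 0.0327), with a range from 7.02e-07 to 0.934 over the alternatives. Without MSC replicate 3 Msx2 passed (limma adjusted p 0.0393) and so did Runx2, a factor of bone and tooth mesenchyme, at -1.57 (limma adjusted p 0.0376), with ranges from 9.04e-07 and 6.70e-07 to 1.00. In TAC replicate 3, where the maturation-stage genes were highest, Msx2 was 104 beside 107 and 109 in the other TAC libraries.

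Other members of the phosphoprotein family and their SPARC relatives numbered 13, of which 7 had values and 6 were tested. In limma 0 passed, 1 was under 0.05 before adjustment, and the median log2 difference was 0.47. The median was -0.33 without MSC replicate 3, -0.31 in replicates 1 and 2 alone and 0.40 without TAC replicate 3. Dspp, the main noncollagenous protein of dentin, was 4909, 4763 and 476 across the MSC libraries, against 4410, 4370 and 3095 across TAC, so that its lowest library was that of Amelx. Sparcl1, a matrix protein, was 79.9, 85.6 and 171 in MSC and 24.3, 23.8 and 18.7 in TAC. Its log2 difference was -2.20 (SE 0.36, limma adjusted p 0.0709), and it passed without MSC replicate 3 (-1.86, limma adjusted p 0.0376) with a range from 5.77e-07 to 0.464. Sparc, the presumed ancestor of the family, was 592 to 681 in all libraries but TAC replicate 3, at 1137.

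Markers of the cell types that make enamel and dentin were read beside these levels. In bulk samples, fewer cells of a type and less RNA per cell cannot be told apart. Of 14 epithelium markers, all were listed and 13 tested, and in limma 0 passed and 3 were under 0.05 before adjustment, with a median log2 difference of 0.84. In replicates 1 and 2 alone, 44.2% of genes tested passed and 20% passed as higher in TAC. There 7 of the 13 passed, all higher in TAC (Cdh1, Epcam, Esrp1, Krt14, Krt17, Krt5 and Shh). The median there was 0.63. Amelx, Amtn and Klk4 were lower in TAC in that fit, which took its error from pairs of nearly equal libraries. The adjusted p of each of the 7 ran up to 1.00 over the alternatives. The summed value of the 14 markers was 61.8 to 80.1 in MSC and 104 to 152 in TAC, with no overlap. In MSC replicate 3, 9 of the 14 had no read, among them Cdh1, Epcam and Trp63, defining genes of epithelium, while Krt14, a basal keratin, was 16.02 there and 8.84 to 35.6 over all libraries. In TAC replicates 1 and 3 and in MSC replicates 1 and 2 every marker had a read, and in TAC replicate 2 Sox2 had none.

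Per length, Amelx was 205 to 498 times Krt14 in replicates 1 and 2, 8.86 times in MSC replicate 3 and 40.8 times in TAC replicate 3. Against Epcam it was 1212 to 6095 times in replicates 1 and 2 and 272 times in TAC replicate 3. Amtn, at 2.26 to 8.39, Odam and Klk4 lay below Krt14, at 8.56 to 18.3, in replicates 1 and 2. Against Epcam, at 0.935 and 0.699 in MSC replicates 1 and 2, Amtn was higher there, at 8.39 and 7.85, and so was Klk4, at 1.68 and 1.90. In MSC replicate 3 Enam, at 3.23, lay below Krt14, at 22.9. From replicates 1 and 2 of TAC to TAC replicate 3 the epithelium sum went from 104 and 105 to 152. The sum of Amtn, Odam and Klk4 went from 2.67 and 2.23 to 428. Across the 3 MSC libraries the epithelium sum changed from 78.9 and 80.1 to 61.8. The sum of Amelx, Ambn and Enam went from 3631 and 3571 to 269. The epithelium sum in MSC replicate 3 was carried by 5 markers, Perp at 18.2, Krt14 at 16.02, Krt5 at 15.003, Cdh3 at 8.85 and Sfn at 3.72. The 9 without a read included Dsp, at 22.0 and 23.2 in MSC replicates 1 and 2, and Trp63, at 5.14 and 5.59. Amelx, Ambn and Enam had 1061 to 27180 estimated reads in MSC replicate 3. The part of epithelial cells in the enamel gene levels was not tested.

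Of 7 odontoblast markers all were tested, with 0 passing in limma, 2 at an unadjusted p-value under 0.05 and a median log2 difference of 1.17. The median was 0.11 without MSC replicate 3, 0.16 in replicates 1 and 2 alone and 1.25 without TAC replicate 3. In replicates 1 and 2 alone, where 44.2% of all genes passed, 6 of the 7 did, with Dspp and Ibsp lower in TAC and 4 higher. Of these, Dspp, Ibsp, Bglap, Dmp1 and Wnt10a passed in no other alternative, with adjusted p up to 1.00. The summed value of the 7 was 814 to 5271 in MSC and 4625 to 5119 in TAC, and MSC replicate 3 was the lowest library, as for the secretory-stage sum. Dspp made up most of that sum, at 4909 of 5271 in MSC replicate 1. Ibsp and Dmp1 had no read in MSC replicate 3, whereas Bglap, at 279, and Wnt10a, at 15.3, were higher there than in the other MSC libraries. Bglap, which encodes osteocalcin, was 1180.4 in TAC replicate 3 and 172 to 279 in the other libraries, and Phex, an endopeptidase gene, was also highest there, at 128. Dmp1, Smpd3, Wnt10a and Dspp were lower in TAC replicate 3 than in TAC replicates 1 and 2, at 0.902 against 8.43 and 8.82 for Dmp1. Smpd3, a sphingomyelinase of mineralizing cells, had a log2 difference of 2.52 (SE 0.42, limma adjusted p 0.0764) and passed with the replicate block (limma adjusted p 0.0295), with a range from 2.66e-08 to 0.507. The part of odontoblasts in the enamel gene levels was not tested.

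**Figure D4:**
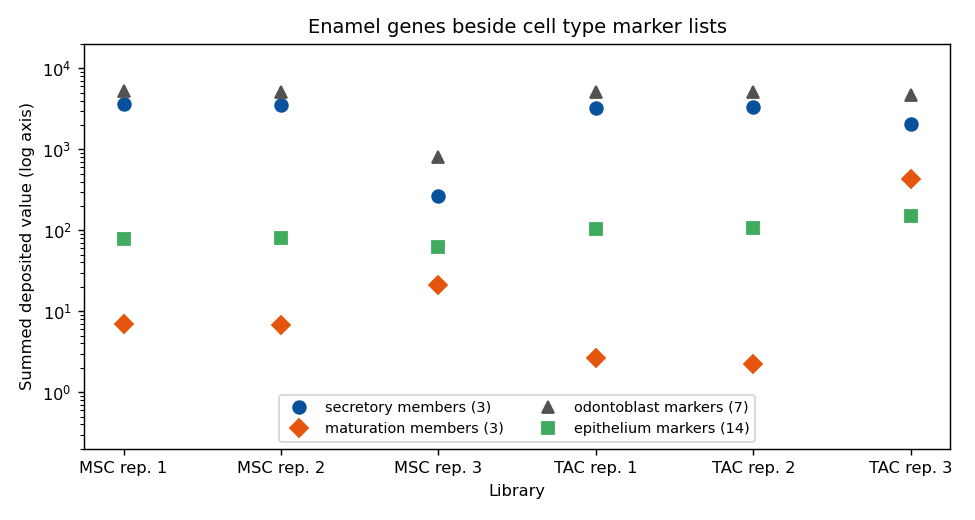
Summed deposited value (log axis) in each library of the 3 secretory-stage and 3 maturation-stage enamel matrix genes, beside 7 odontoblast and 14 epithelium markers. The secretory and odontoblast sums are both lowest in MSC replicate 3, at 269 and 814, the maturation sum is highest in TAC replicate 3, at 428, and the epithelium sum lies between 61.8 and 152, carried by 5 of its 14 markers in MSC replicate 3.

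Markers of other cells the captured regions could hold were lower in TAC by their medians. The medians were -0.87 over 5 endothelium markers, -0.34 over 5 macrophage and leukocyte markers, -1.30 over 4 tested Schwann cell markers and -0.27 over 8 dental mesenchyme markers. In the same order they were -0.89, -0.18, -0.71 and -0.44 without MSC replicate 3. Without TAC replicate 3 they were -0.75, -0.56, -1.43 and -0.004. In limma over the 6 libraries 0 of these genes passed, and 2, 1, 1 and 1 genes of these lists were under 0.05 before adjustment. Their sums in MSC replicate 3 were 195, 80.6 and 43.2 for endothelium, leukocytes and Schwann cells, each the highest of the 6 libraries, where the secretory-stage enamel genes were lowest.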

How the data were processed

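RNA from 6 laser-captured incisor samples, 3 MSC and 3 TAC, was sequenced as single-end reads. The authors trimmed the reads and aligned them to mm10 with TopHat 2.0.8, and the submitters' processing notes also name CASAVA 1.8.2 and Partek. The methods state RPKM, but the values that the authors deposited were a signal, a read number with 1 read added and a scale factor per library, without division by gene length. Estimated reads were the value divided by the library's lowest value, minus 1, and were partly fractional, so no count model was the main test. Depth was 20203159 to 108156380 estimated reads per library. The counting tool and its strand setting are not given in the sources used here.

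The members, lists and alternatives were chosen with earlier results of these data known. Named genes were the 6 members, genes of the described lists, and by rule the 5 genes most like the members' mean profile and the 1 most like each member, leaving out symbols of Gm followed by digits or ending in Rik. The planned test assumed normalized values, and log2(value + 1) was fitted in limma 3.58.1 (R 4.3.3) with a variance trend, TAC minus MSC, two-sided, for 15391 genes with a mean of at least 1, with Benjamini-Hochberg adjustment over all of them. The fit was tested on simulated data without the split of replicate 3, so that test does not measure its power here. Other fits used another pseudocount, filter, scaling or variance model, voom, the replicate block, or fewer libraries, and the averaging of replicates 1 and 2 was added after seeing the data. Fits on fewer libraries kept the same 15391 genes. Exon lengths, the union of exons per gene, came from GENCODE M21 on the same build, and promoters from RefSeq for all 6 members. Deviations from group means correlated across genes at 0.477, 0.465 and 0.517 for same-numbered libraries, so the numbers in the labels were taken as pairs, although the crossed pairs of replicates 1 and 2 reached 0.462 and 0.480.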

Additional observations from a re-analysis of the deposited data

How the results depend on the processing

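The count of 0 enamel matrix genes past the adjusted threshold held in 17 of 18 alternatives and was 3 with replicates 1 and 2 only. Without MSC replicate 1 or 2, or TAC replicate 1 or 2, 0 of 15391 genes passed. A count of 0 enamel matrix genes in these fits therefore says little. The median log2 difference over the enamel matrix genes tested ranged from -0.143, with replicates 1 and 2 only, to 1.95 in voom, so its sign turned without replicate 3. It ran from 0.183 to 1.30 when 1 library was left out. Signs turned with replicates 1 and 2 only for Amelx (-0.213), Enam (-0.0732), Amtn (-1.34) and Klk4 (-0.774). They turned without MSC replicate 3 for Amelx (-0.674) and Enam (-0.707), and without TAC replicate 3 for Amtn (-1.47), Odam (-1.04) and Klk4 (-0.370). Ambn kept its sign, from 0.0258 to 1.35. With 1 library left out, the ranges were -0.674 to 1.796 for Amelx, 0.198 to 1.28 for Ambn, -0.707 to 1.93 for Enam, -1.47 to 1.54 for Amtn, -1.04 to 2.58 for Odam and -0.370 to 2.04 for Klk4. In voom on estimated reads Amtn, Odam and Klk4 were at 2.72, 3.33 and 7.72. A filter at a mean of 10 left Klk4 untested.

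With the replicate block, which pairs libraries by number, 0 of the 6 passed, with adjusted p-values of 0.422 to 0.818, and it changed no call among them. The count over all genes was 65 in limma. It was 229 with the block, 114 with quantile normalization (27 higher in TAC, against 6 of the 65), 38 with a pseudocount of 0.1, 29 without a trend, 23 in voom, 6796 with replicates 1 and 2 only, 10 with these averaged, 292 without MSC replicate 3, 36 without TAC replicate 3, and 0 without any other library (1028 to 1367 at an unadjusted p-value under 0.05). The median of all genes was 0.026, and between -0.13 and 0.14 with 1 library left out. Klk4 and Odam in replicates 1 and 2 rest on 3 to 48 estimated reads each, which limits what their differences there can show.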
